A study of Homo sapiens with 2 samples.

Results

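The genes of the 4 human HOX clusters were examined for anti-Flag CUT & Tag peaks in TFK-1 cells, an established line of extrahepatic cholangiocarcinoma. The members were 38 HOX genes chosen by name, out of 20056 protein-coding genes in the gene table. They comprised 10 genes of the HOXA cluster on chromosome 7, 10 of HOXB on chromosome 17, 9 of HOXC on chromosome 12 and 9 of HOXD on chromosome 2. In the LV-HOXA5 condition the cells had been transduced with a lentivirus for Flag-tagged HOXA5 and kept as a stable puromycin-selected line. In the LV-HOXA5-NC condition they carried the negative control lentivirus. CUT & Tag uses an antibody to bring a transposase to a protein on DNA, so that fragments near the protein are released and sequenced. Each condition had 1 library, so no difference between them has a replicate check.

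HOX genes encode transcription factors that bind DNA through a homeodomain and give cells their position along the body axis. Within a cluster the genes are mostly read in the same direction, and their order follows the order in which they are used from head to tail. Genes at the same place in different clusters form a paralog group. HOX clusters are classic targets of Polycomb repression and of the opposing Trithorax-type activators, and HOX proteins regulate HOX genes, their own included.

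The LV-HOXA5 library held 15778555 fragments and gave 8043 peaks. The LV-HOXA5-NC library held 1948734 fragments, 12.4% as many, and gave 635 peaks. A peak is a stretch where fragments exceed the local background of the same library. Its pileup is the number of fragments over the summit, and its fold enrichment is the pileup relative to that background. Both lists hold only stretches past the threshold, so a gene with no peak is not shown to lack signal.

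A cluster window was taken from the first to the last base of its listed genes with 50 kb on both sides. Across the 4 windows, 3 peaks were listed for LV-HOXA5 and 0 for LV-HOXA5-NC. The HOXA window held 2 of the peaks and the HOXC window 1, while the HOXB and HOXD windows held 0. All 3 peaks lay inside HOX genes. Over the 921 kb of the windows this was 0.326 peaks per 100 kb (exact 95% Poisson interval 0.0672 to 0.952), beside 0.298 over the effective genome size. The control list had 0.0235 peaks per 100 kb over the genome, so a stretch of this length would mostly hold none. By chromosome, the density was 0.296 per 100 kb on chromosome 7, 0.509 on chromosome 17, 0.314 on chromosome 12 and 0.221 on chromosome 2. The density of LV-HOXA5 peaks in the windows was therefore close to that of the genome, and its interval was wide. With 100 kb on both sides the count was 6, since peaks beyond HOXB and HOXD then entered.

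**Figure D1:**
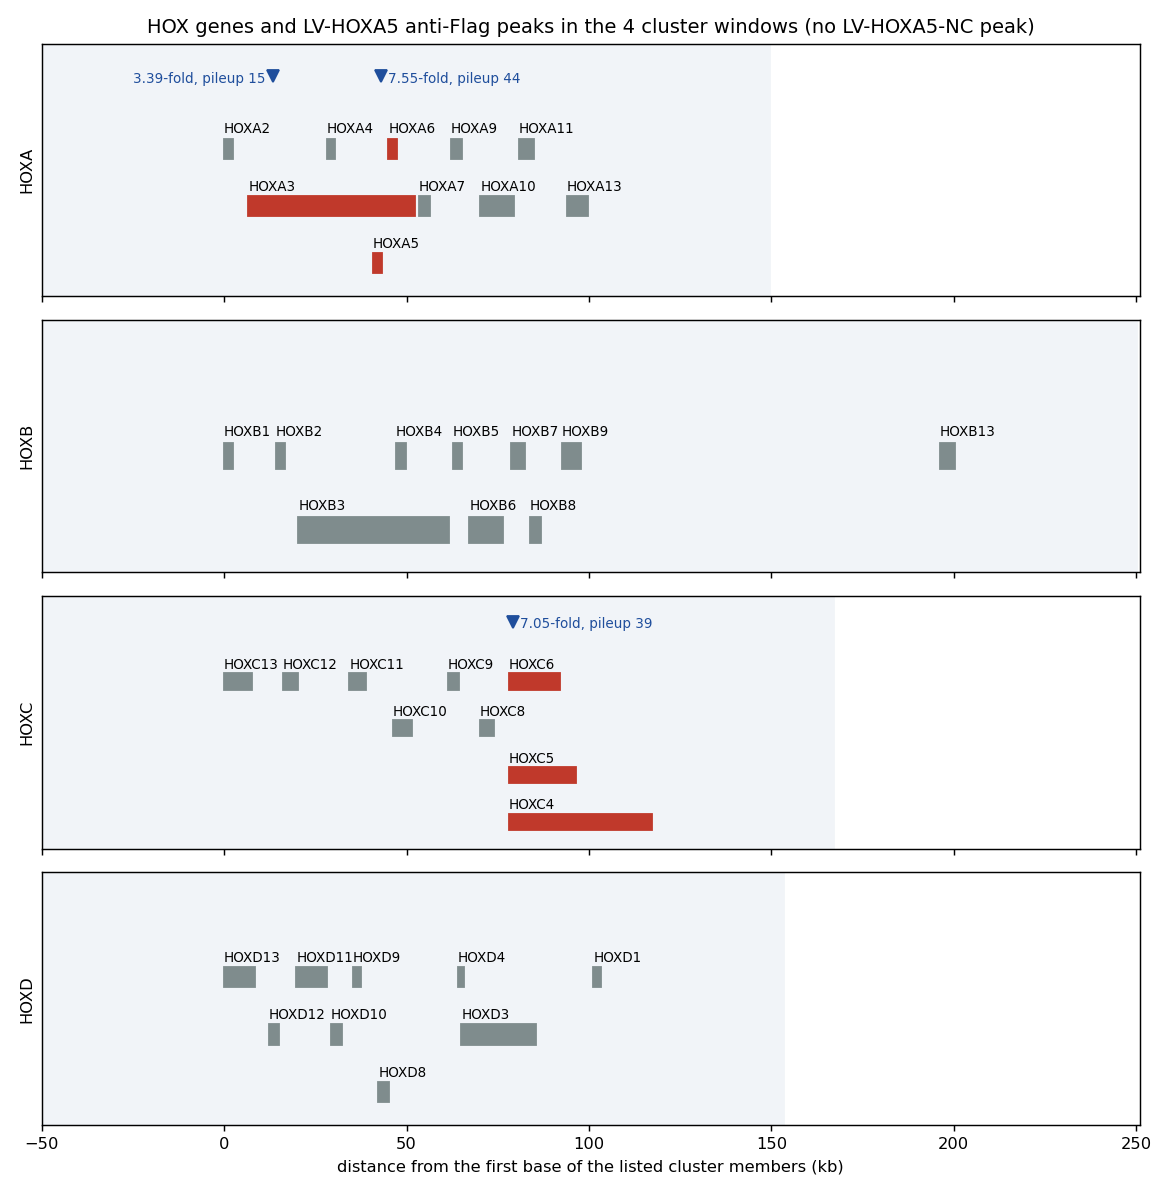
HOX genes (bars) and LV-HOXA5 peaks (blue triangles, with fold enrichment and pileup) along each cluster, as distance in kb from the first base of its listed genes; shading marks the window with 50 kb on both sides. Red bars are the 6 genes with a peak inside or within 3 kb of an end, which share 3 peaks, and the HOXB and HOXD panels hold no peak.

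A gene was counted when a peak lay inside it or within 3 kb of an end. In LV-HOXA5 this held for 6 of 38 HOX genes (15.8%, exact 95% binomial interval 6.02 to 31.3%), namely HOXA3, HOXA5, HOXA6, HOXC4, HOXC5 and HOXC6. Over all protein-coding genes it held for 4143 of 20056 (20.7%). The share of HOX genes was thus near that of genes in general. In LV-HOXA5-NC it held for 0 of 38 HOX genes and for 130 of 20056 protein-coding genes (0.648%). The 6 genes are not independent counts, because they overlap each other and rest on 3 peaks. By paralog group, peaks fell at 1 of 7 anterior genes (groups 1 to 3) and 5 of 15 central genes (groups 4 to 8). They fell at 0 of 16 posterior genes (groups 9 to 13), all 16 of which are at most 10 kb long. Of the central genes, HOXA5 and HOXA6 share a peak, and HOXC4, HOXC5 and HOXC6 share another. No pattern along the clusters is read from this split.

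HOX genes are short, and the count was not adjusted for length. The median length of the 38 genes was 3.79 kb, against 24.1 kb over all protein-coding genes. Among genes of at most 10 kb, a choice made after the data were seen, a peak was present at 2 of 32 HOX genes (6.25%, interval 0.766 to 20.8%), HOXA5 and HOXA6. The same held for 645 of 5708 protein-coding genes of that length (11.3%).

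The highest of the 3 peaks lay over HOXA5 itself, at chr7:27143075-27143674 (GRCh38). Its pileup was 44 fragments (exact 95% Poisson interval 32.0 to 59.1), its fold enrichment 7.55 and its −log10 q-value 22.5. This fold exceeded that of 91.7% of the LV-HOXA5 peaks. The peak covered 600 bp of the 2630 bp gene (chr7:27141052-27143681) and ended 7 bp short of the gene end that faces HOXA6. The remaining 2023 bp of HOXA5 on the other side of the peak held no peak. As the LV-HOXA5 cells also carry a lentiviral copy of HOXA5, fragments of that copy and of the chromosomal gene cannot be told apart here. Exon and intron positions were not used.

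The peak over HOXA5 was also counted for other genes. It lay inside the long extent of HOXA3 (chr7:27107010-27152583), a gene of paralog group 3 whose annotated transcripts span HOXA4, HOXA5 and HOXA6. HOXA6, the neighbour of HOXA5 in the central part of the cluster, lay 1722 bp from it. The antisense lncRNA HOXA-AS3 (chr7:27140364-27155928) contained it as well. Without this peak, a setting chosen after the data were seen, 4 of the 38 genes had a peak.

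The HOXC peak lay at chr12:54017712-54018378, with a pileup of 39 fragments (interval 27.7 to 53.3), a fold enrichment of 7.05 and a −log10 q-value of 18.8. It was 667 bp long, and its fold exceeded that of 89.1% of the LV-HOXA5 peaks. HOXC4, HOXC5 and HOXC6, central genes of the cluster, share the annotated end at base 54016888, which is a listed transcription start of HOXC4 and HOXC5. The peak began 824 bp downstream of that base, inside the genes. It therefore counted for all 3 genes. It also shared bases with the lncRNA LOC124902939 (chr12:54016013-54017747). HOXC8, the next gene, lay 4943 bp away and had no peak within 3 kb.

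The lowest of the 3 peaks lay inside HOXA3, at chr7:27113444-27113804. It was 361 bp long, with a pileup of 15 fragments (interval 8.40 to 24.7), a fold enrichment of 3.39 and a −log10 q-value of 2.54. Only 5.68% of the LV-HOXA5 peaks had a lower fold, while 35.9% had a lower pileup. It was the only 1 of the 3 peaks to fall out at a q-value of 0.001. Its edge lay 38 bp downstream of a listed HOXA3 transcription start at base 27113842, which is 1 of 7 starts listed for the gene. The pileup intervals of the HOXA5 and HOXC peaks overlapped each other and lay above that of the HOXA3 peak.

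**Figure D2:**
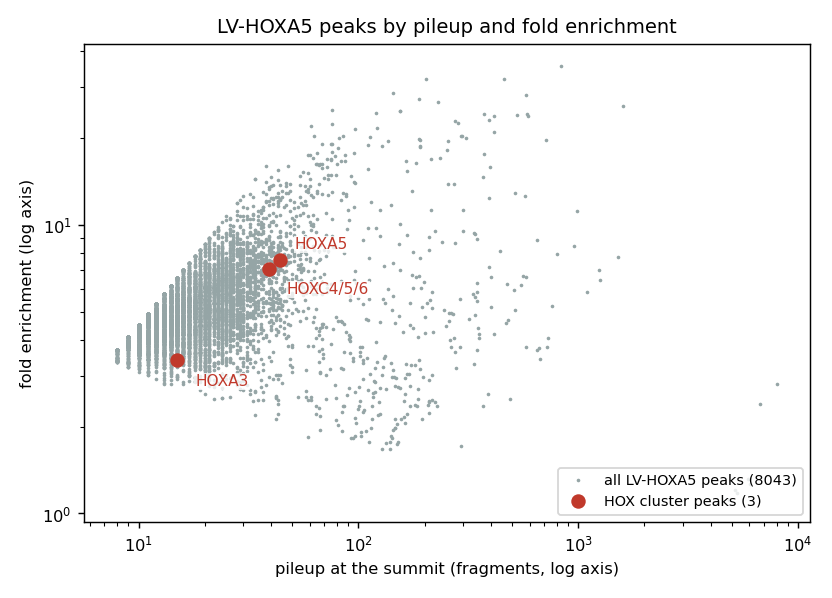
Pileup at the summit (fragments, log axis) against fold enrichment (log axis) for the 8043 LV-HOXA5 peaks (grey), with the 3 HOX cluster peaks in red. The HOXA5 and HOXC4/5/6 peaks sit together at 44 and 39 fragments. The HOXA3 peak, at 15 fragments and 3.39-fold, lies low in the list by fold but less so by pileup.

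The median fold enrichment of the 3 peaks was 7.05, beside 4.82 over the LV-HOXA5 list. The local background recovered from the deposited values was 4.96 fragments at the HOXA5 peak, 4.68 at the HOXC peak and 3.72 at the HOXA3 peak. The median over all LV-HOXA5 peaks was 2.55 fragments, with quartiles of 1.90 and 3.67. All 3 HOX peaks thus stood on a local background above the upper quartile of the list.

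None of the 3 peaks overlapped an LV-HOXA5-NC peak, and 444 of all 8043 LV-HOXA5 peaks did (5.52%), so that 0 of 3 sets the HOX peaks apart from no others. The nearest control peak lay 4.67 Mb from the HOXA genes, 1.02 Mb from HOXB, 5.05 Mb from HOXC and 14.8 Mb from HOXD. At the depth of the control library, the same density of fragments would give a pileup of 5.43 at the HOXA5 peak (interval 3.95 to 7.30), 4.82 at the HOXC peak (3.43 to 6.58) and 1.85 at the HOXA3 peak (1.04 to 3.06). The lowest pileup of any listed control peak was 4 fragments, and 70 of the 635 had 5 or fewer. The HOXA3 peak would thus fall under that lowest value at this depth, and the HOXA5 and HOXC peaks lie near it. A call also depends on the local background. In LV-HOXA5 this was 3.45 times the genome-wide level at the HOXA5 peak, 3.25 times at the HOXC peak and 2.59 times at the HOXA3 peak. The pileup alone therefore does not say whether any of them would be listed at that depth. The part of depth in the absence of control peaks at these genes was not tested.

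The other HOXA genes were near these peaks without reaching the 3 kb limit. HOXA2 lay 10.8 kb from the nearest LV-HOXA5 peak, HOXA4 12.3 kb, HOXA7 10.0 kb and HOXA9 18.8 kb. Distances then grew along the posterior genes, from 26.9 kb at HOXA10 to 37.5 kb at HOXA11 and 50.7 kb at HOXA13. In HOXC they likewise grew from 14.4 kb at HOXC9 through HOXC10, HOXC11 and HOXC12 to 71.2 kb at HOXC13. These distances follow from the position of a few peaks and are not separate measurements.

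HOXB and HOXD each lay wholly in a stretch without LV-HOXA5 peaks. The 10 HOXB genes, HOXB1 to HOXB9 and HOXB13, were 66.9 to 217 kb from the nearest peak, with HOXB13 the nearest and HOXB4 the farthest. They lay in a stretch of 440 kb without a peak. The 9 HOXD genes, HOXD1, HOXD3, HOXD4 and HOXD8 to HOXD13, were 78.3 to 173 kb away, with HOXD1 the nearest and HOXD13 the farthest. Their stretch was 1100 kb long. The median stretch between neighbouring LV-HOXA5 peaks was 103 kb. Of 8018 such stretches, 21.4% were at least as long as that of HOXB, and they wholly contained 54.1% of all protein-coding genes. At least as long as that of HOXD were 8.08% of the stretches, with 27.8% of the genes. Over the 38 HOX genes the median distance was 69.0 kb, beside 77.9 kb over the protein-coding genes on chromosomes with peaks.

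**Figure D3:**
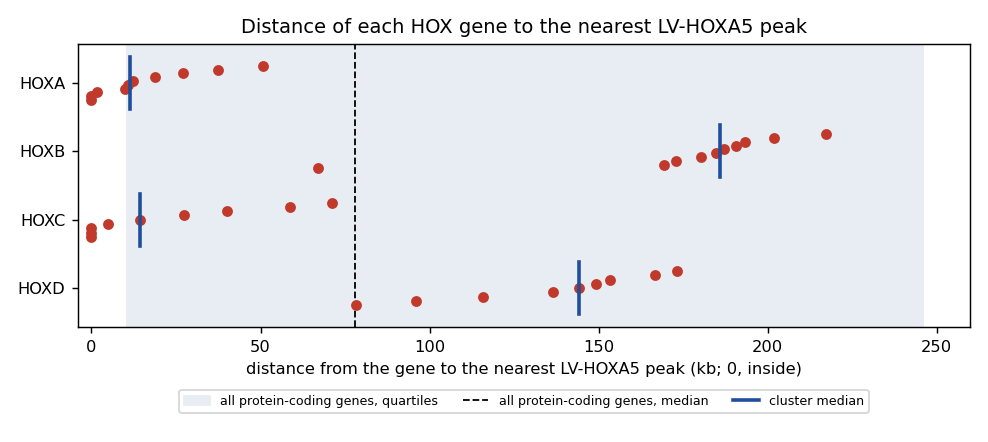
Distance in kb from each of the 38 HOX genes (red points) to the nearest LV-HOXA5 peak, by cluster, with the cluster median (blue bar); the dashed line and the shaded band give the median (77.9 kb) and quartiles (10.4 and 246 kb) of all protein-coding genes. HOXA and HOXC genes lie at 0 to 71.2 kb, and HOXB and HOXD genes at 66.9 to 217 kb.

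The listed HOX starts within 1 kb of a peak are shown to let the sequence be read beside the peaks. RefSeq windows of 250 bases before to 50 bases after a start (GRCh38) were listed for 20 of the 38 genes, as 26 different windows, of which HOXA3 has 7. Among these genes, 3 of 20 (15.0%, interval 3.21 to 37.9%) had a listed start no more than 3 kb from a peak of LV-HOXA5, namely HOXA3, HOXC4 and HOXC5. HOXA5 and HOXC6, which also had a peak, are not among the 20 genes. The same held for 2424 of 15843 protein-coding genes with a listed start (15.3%). The 250 bases before the HOXA3 start that the lowest peak adjoins (chr7:27113843-27114092, minus strand) and before the start shared by HOXC4 and HOXC5 (chr12:54016638-54016887, plus strand) follow, 5′ to 3′, with TAAT on either strand in capitals.
HOXA3: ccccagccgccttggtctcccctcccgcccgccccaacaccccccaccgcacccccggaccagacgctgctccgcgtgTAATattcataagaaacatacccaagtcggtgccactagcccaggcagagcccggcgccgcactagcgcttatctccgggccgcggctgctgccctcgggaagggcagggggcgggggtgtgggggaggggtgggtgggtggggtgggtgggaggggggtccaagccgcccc
HOXC4 and HOXC5: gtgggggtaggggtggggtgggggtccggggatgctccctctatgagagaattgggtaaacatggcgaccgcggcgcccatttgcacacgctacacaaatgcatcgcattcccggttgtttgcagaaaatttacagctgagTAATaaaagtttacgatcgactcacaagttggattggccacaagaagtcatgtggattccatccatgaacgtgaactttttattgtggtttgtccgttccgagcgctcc

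TAAT, the core that homeodomains bind, occurred 1 time in each of these stretches, 172 bases before the HOXA3 start and 109 bases before the HOXC4 and HOXC5 start, counted from the first base of the match. The HOXC stretch also held TTTAT 2 times, and the HOXA3 stretch held none. Neither held TGATNNAT, a composite of HOX and PBX sites. The G and C content was 72.0% in the HOXA3 stretch and 50.8% in the HOXC stretch. Neither stretch shared bases with a peak, so all of these matches lay outside the peaks. A match describes letters and is not a binding site.

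Over the full windows, TAAT on either strand was present in 20 of 26 HOX windows (76.9%, interval 56.4 to 91.0%). It was present in 50.3% of all 34943 windows and in 39.9% of the 2861 windows that shared bases with an LV-HOXA5 peak. Only 1 HOX window, the HOXA3 window printed in part above, shared bases with a peak (12 bases), and it held TAAT. Its 1 match lay 172 bases before the start, whereas the shared bases lay after the start, so the match was outside the peak. TTTAT was present in 53.8% of HOX windows, 35.0% of all windows and 19.7% of the windows that shared bases with a peak. TGATNNAT was present in 11.5%, 7.42% and 3.84%, in the same order. Windows that shared bases with a peak were richer in G and C, with a median of 63.3%. It was 58.7% over all windows and 58.0% over HOX windows. The part of base composition in these shares was not tested. HOX windows of 1 cluster share ancestry and are not independent.

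A list of 24 named noncoding RNAs of the clusters, several of which act on HOX transcription, was counted in the same way. It does not include LOC124902939, which shares bases with the HOXC peak, so it is not a count of every RNA of the clusters. Of the 24, HOXA-AS3 alone had an LV-HOXA5 peak inside or within 3 kb (4.17%, interval 0.105 to 21.1%), beside 8.33% of all lncRNA and miRNA genes. Its peak is the one over HOXA5. HOXA-AS2 lay 8.12 kb from a peak, HOTAIRM1 13.2 kb, HOTAIR 42.8 kb and HOTTIP 56.7 kb. The HOXB and HOXD RNAs lay 80.2 kb or more away.

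Of 14 genes that flank the clusters, 8 had an LV-HOXA5 peak (57.1%, interval 28.9 to 82.3%), beside 20.7% of all protein-coding genes, which lies outside that interval. The interval takes the genes as independent, which they are not, since CBX5 and HNRNPA1 share a peak, and the list was chosen with earlier results known. The median length of the 14 genes was 40.0 kb, against 24.1 kb over all protein-coding genes, and length was not adjusted for, so the share is a description of these genes and no excess is read from it. Next to HOXA, peaks lay over an end of SKAP2, an adaptor protein gene (pileup 22, 6.55-fold), and over an end of HIBADH, an enzyme of valine breakdown (pileup 13, 4.62-fold). Beyond HOXB, SKAP1 held 4 peaks within its 312 kb (4.29-fold to 4.63-fold), and TTLL6 held 2 (3.77-fold and 5.78-fold).

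Beyond HOXC, 1 peak lay 25 bp from CALCOCO1 (pileup 18, 5.23-fold). CBX5, which encodes a heterochromatin protein, had 2 peaks. The stronger, with a pileup of 46 and a fold of 6.59, reached over the end of CBX5 to 5 bp from HNRNPA1, a splicing factor gene. Beyond HOXD, a peak covered an end of MTX2, a mitochondrial import gene (pileup 12, 5.33-fold). No peak was listed within 3 kb of EVX1, EVX2, PRAC1, PRAC2, SMUG1 or LNPK. EVX1 and EVX2 are homeobox genes at the posterior ends of HOXA and HOXD.

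Further lists concerned genes that work with HOX proteins or on HOX chromatin. Among 8 cofactors, homeodomain proteins that bind DNA together with HOX proteins, 1 had an LV-HOXA5 peak (12.5%, interval 0.316 to 52.7%). This peak, with a pileup of 18 and a fold of 6.85, lay 746 bp from PBX3. Of the 6 ParaHox genes, the evolutionary sister group of the HOX genes, 0 had a peak (interval 0 to 45.9%), a list too short to set apart from the 20.7% of all protein-coding genes.

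Among 17 chromatin regulators of HOX clusters, 4 had an LV-HOXA5 peak (23.5%, interval 6.81 to 49.9%). EED, a subunit of the Polycomb complex that methylates histone H3, had a peak over an end (pileup 10, 4.51-fold). KDM6B, which removes that methylation, had 2 peaks (3.31-fold and 3.59-fold). Of the genes that act in the activating direction, KMT2B had peaks 608 and 1717 bp outside its ends (3.00-fold and 3.76-fold), and DOT1L had 1 peak 5007 bp inside an end (6.23-fold). None of the genes in these lists had an LV-HOXA5-NC peak, which is little to read beside the 0.648% of all protein-coding genes. For the cofactors, the ParaHox genes and the chromatin regulators, as for the HOX genes, the interval included the 20.7% of all protein-coding genes. Length was not adjusted for in these lists. Their median gene lengths were 99.1 kb, 7.22 kb and 42.9 kb in the same order, against 24.1 kb over all protein-coding genes.

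**Figure D4:**
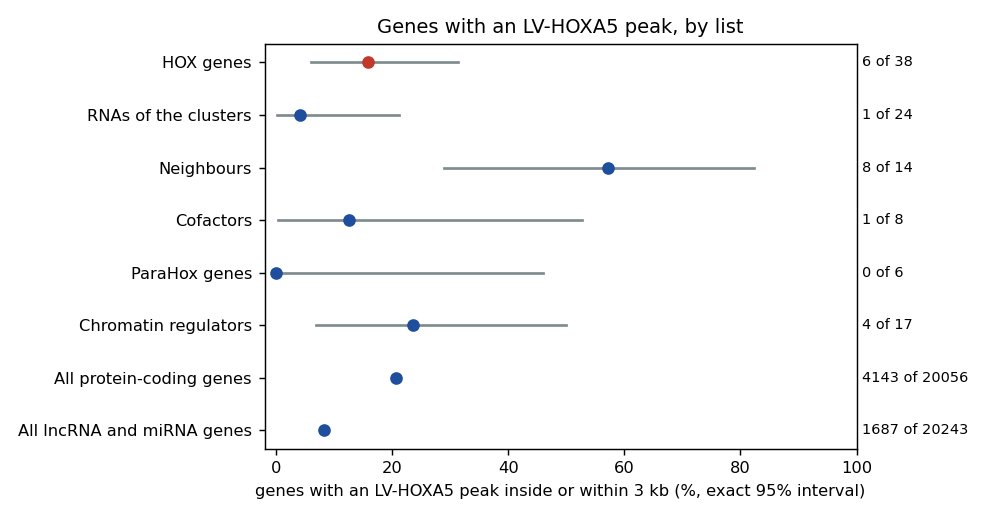
Percent of genes with an LV-HOXA5 peak inside or within 3 kb of an end, for HOX genes (red) and further lists (blue), with exact 95% binomial intervals (lines) and counts at the right. HOX genes stand at 15.8% (6 of 38), beside 20.7% of all protein-coding genes.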

How the data were processed

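Anti-Flag CUT & Tag was done in 1 LV-HOXA5 and 1 LV-HOXA5-NC library, grouped by their labels. Per the submitters' processing notes, the authors used fastp, Bowtie2, deepTools, MACS2 and ChIPseeker with GRCh38. Per the file headers, duplicates had been removed, and MACS 2.2.7.1 was run on each library alone (paired-end mode, q-value of 0.05, no control file). The effective genome size was set to 2.7e+09 bp. The deposited pileup is a signal in fragments, not scaled for depth. The deposited −log10 p-values and q-values and the deposited fold enrichment, a ratio to the local background, are within a library.

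Genes were matched by symbol to GRCh38.p14 (no strand or exons) and starts to RefSeq windows. The local background was recovered as (pileup + 1) / fold − 1, and for 99.7% of the LV-HOXA5 peaks it returned the deposited −log10 p-value to within 0.01. Peaks sharing 1 bp were counted as overlapping. Chromosome lengths were taken up to the last annotated gene end. Intervals are exact (Clopper-Pearson or Poisson) and cover counting error only. No test was run between conditions. The code for distances and motif matches was checked on simulated input with known answers. TAAT, TTTAT and TGATNNAT (N, any base) were searched on both strands, and matches may overlap. The 38 listed HOX genes were each accounted for, and genes of the further lists were named where a peak lay inside or within 3 kb. 1 further HOX gene and 1 further gene of the lists are not reported here. The members and lists were chosen with earlier results of these data known. Alternatives concerned q-value, fold, summit, distance, starts, overlap, peak length, flank and motif window. Python 3.11.15, NumPy 2.4.6, SciPy 1.17.1, pandas 2.3.3 and Matplotlib 3.10.9 were used.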

Additional observations from a re-analysis of the deposited data

How the results depend on the processing

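The count of HOX genes with an LV-HOXA5 peak was 5 to 7 of 38 under the planned settings of q-value, fold, summit, distance, overlap and peak length. It was 3 of 20 where only listed starts were used. In settings chosen after seeing the data it was 2 of 32 for genes of at most 10 kb, and 4 without the peak over HOXA5. At or above the median fold the count was 6 of 38, as in the main setting. The HOX share of 15.8% then lay above the 11.2% of all protein-coding genes, whereas in the main setting it lay below their 20.7%. Its interval, 6.02 to 31.3%, holds both values, so no change of direction is read. At that setting the 6 genes rested on 2 peaks, the peak over HOXA5 among them. The windows held 6 peaks with a 100 kb flank, and 2 or 3 under the other settings. The median fold enrichment at HOX genes was 7.3 at a q-value of 0.001, where 2 peaks were left, and 5.22 without the peak over HOXA5. The counts of LV-HOXA5-NC peaks at HOX genes, in the windows and overlapping were 0 under every setting run. The share of HOX windows with TAAT was 73.1% over the 250 bases before the start. It was 47.5% for all windows and 36.4% for windows that shared bases with an LV-HOXA5 peak.

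The percent of all protein-coding genes with an LV-HOXA5 peak was 17.9 at a q-value of 0.001, 11.2 at or above the median fold, 19.5 within 1 kb, 24.7 within 10 kb, 15.3 at starts, 18.1 for peaks at least as long as the shortest control peak and 11.3 for genes of at most 10 kb. In LV-HOXA5-NC it was 0.409 at a q-value of 0.001, 0.339 at or above the median fold, 0.828 within 10 kb, 0.0694 at starts and 0.245 for genes of at most 10 kb. These shifts follow from fewer or more peaks, bases or genes being counted. No paired analysis was possible because each condition had 1 library.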
